A study of Mus musculus with 3 samples.

Results

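The apelin ligand *Apln*, its receptor *Aplnr*, the carbonic anhydrase *Car4*, and the diaphragm gene *Plvap* were taken by symbol, as 4 of the 28692 genes counted. Their levels were described in each cell type of the mouse lung and then cell by cell within ECs, to ask which of them occur in the same cells and which exclude each other. Whole lungs of 3 wild-type C57BL/6 pups, kept in room air (RA) from day 1 to day 14 of life and taken on P14, were dissociated into single cells for scRNA-Seq with 10x v3 reagents. The 3 libraries (mice 2, 3, and 4) form 1 condition, so mice are the replicates (n = 3), and no treated or mutant lung was analyzed here.

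Apelin is a secreted peptide that is cut from a longer precursor and acts on a G protein–coupled receptor, APLNR, found mainly on ECs. Lung capillaries hold at least a pair of EC kinds. One is a wide, thin EC that carries *Car4* and *Ednrb*, and the other carries *Aplnr*, *Gpihbp1*, and *Kit*. CAR4 is a membrane-anchored enzyme that interconverts carbon dioxide and bicarbonate on the capillary surface, and PLVAP forms the diaphragms that span caveolae and fenestrae of ECs.

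The libraries held 9644 cells with 22476491 to 25192427 unique transcript counts (UMIs) per mouse, of which 7642 passed a floor of 200 detected genes and a ceiling of 20% mitochondrial UMIs. Levels are given as CPM, the UMIs of a gene scaled to the same total of UMIs in every cell group. The kept cells fell into 951 ECs, 1260 epithelial, 1536 stromal, and 3024 immune cells, with 871 left unnamed, and none of the 4 genes helped to form or name these clusters. Their median depth was 4853 to 7119 UMIs per mouse, and library pairs shared 2 to 5 cell barcodes. Doublet scoring marked 156 cells, which were kept. Independently of clusters, 949 cells with at least 4 UMIs of *Cdh5* and *Cldn5* together were called gated ECs (358, 228, and 363 in mice 2, 3, and 4). Their median depth was 8086 UMIs, 39 of them were marked as doublets, and 886 of the 949 lay in EC clusters.

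ECs were clustered again and named from marker lists that hold none of the 4 genes. Ednrb-type capillary ECs (167 cells) showed *Ednrb*, *Fibin*, and *Tbx2*, and Gpihbp1-type capillary ECs (415 cells) showed *Gpihbp1*, *Kit*, and *Sema3c*. Their sub-clusters differed. Of the Ednrb type, 70 cells with a median of 841 UMIs had only *Emp2* and *Tbx2* of their list among their 10 leading genes. Of the Gpihbp1 type, 152 cells had no gene of their list there. Arterial-like (154 cells), venous-like (105), and lymphatic-like ECs (22) were also found, and 88 ECs fitted no list. Of those 88, a group of 69 was led by the stromal genes *Mfap4* and *Col1a2* and held 12 marked doublets, and the part of doublets in its values was not tested. Arterial-like ECs were a sub-cluster of 95 cells and one of 59. The larger had *Sftpc*, *Sftpb*, and *Lyz2*, genes of epithelial and myeloid cells, among its 10 leading genes and 1 gene of the arterial list, *Gja5*, so values are given for each sub-cluster. When the 4 genes were allowed among the variable genes, only 95 cells, all of them among the 167, kept the name Ednrb-type.

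Between classes of the P14 lung, all 4 genes were highest in ECs. The EC level of the ligand *Apln* was 70.0, 131, and 91.1 CPM in mice 2, 3, and 4, while the levels in epithelial, stromal, and immune cells lay between 0.239 and 3.08 CPM. The receptor *Aplnr* reached 585, 559, and 529 CPM in ECs and at most 7.15 CPM in any other named class. *Plvap* reached 817, 738, and 710 CPM in ECs and at most 14.3 CPM in the other named classes, while the unnamed cells held 149 to 257 CPM. For these 3 genes, ECs of every mouse were above every other class of every mouse.

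*Car4* was less restricted. Its EC level was 203, 307, and 250 CPM, against 32.8 to 45.3 CPM in immune cells and at most 4.24 CPM in epithelial and stromal cells, again without overlap. Within the immune class, however, 71 alveolar macrophage-like cells had 849 to 1377 CPM, above the EC class in every mouse. In edgeR's quasi-likelihood test across 14209 genes, the log2 fold change of ECs over the mean of the other classes was 5.86 ± 0.26 (SE, adjusted *P* = 3.85e-11) for *Apln* and 7.50 ± 0.24 (adjusted *P* = 9.21e-13) for *Aplnr*. It was 5.53 ± 0.15 (adjusted *P* = 1.23e-13) for *Car4* and 7.0 ± 0.29 (adjusted *P* = 1.21e-11) for *Plvap*. All 4 genes were called higher, as were 29.7% of all genes tested. This contrast averages the epithelial, stromal, and immune classes on the log scale, so a gene called higher in ECs can still have its top level in another class.

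ECs of the EC clusters held 88.4% ± 1.33% (SD, n = 3) of the *Apln* UMIs of a library, 93.2% ± 0.42% of the *Aplnr* UMIs, and 88.5% ± 1.19% of the *Plvap* UMIs. The corresponding share of *Car4* was 76.9% ± 6.19%, and a further 16.3% ± 6.74% of *Car4* UMIs lay in alveolar macrophage-like cells. The gated ECs, 38 of them in unnamed clusters, held 91.6% of *Apln*, 98.3% of *Aplnr*, 80.8% of *Car4*, and 96.8% of *Plvap* UMIs (means over mice). These are shares of the kept cells. With the UMIs of cells removed by the filter added to the total, the kept ECs of the EC clusters held 62.6% ± 9.72% of *Car4* UMIs. No removed cell was counted as an EC, although 35 of the 2002 had at least 4 UMIs of *Cdh5* and *Cldn5* together. Alveolar macrophage-like cells and removed cells with at least 2 of 5 alveolar macrophage markers together held 29.7% ± 11.3% of *Car4* UMIs. By mouse, this was 22.7%, 42.8%, and 23.6% in mice 2, 3, and 4. B-cell-like cells, which should lack all 4 genes, give the level of stray RNA. Of 1784 such cells, 7 had an *Apln* UMI, 7 an *Aplnr* UMI, 7 a *Car4* UMI, and 10 a *Plvap* UMI, at a median depth of 3960.5 UMIs. The other ligand of the receptor, *Apela*, gave 10 UMIs in 9 of the 7642 kept cells, of which 8 were AT1-like and 1 was AT2-like.

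**Figure D1:**
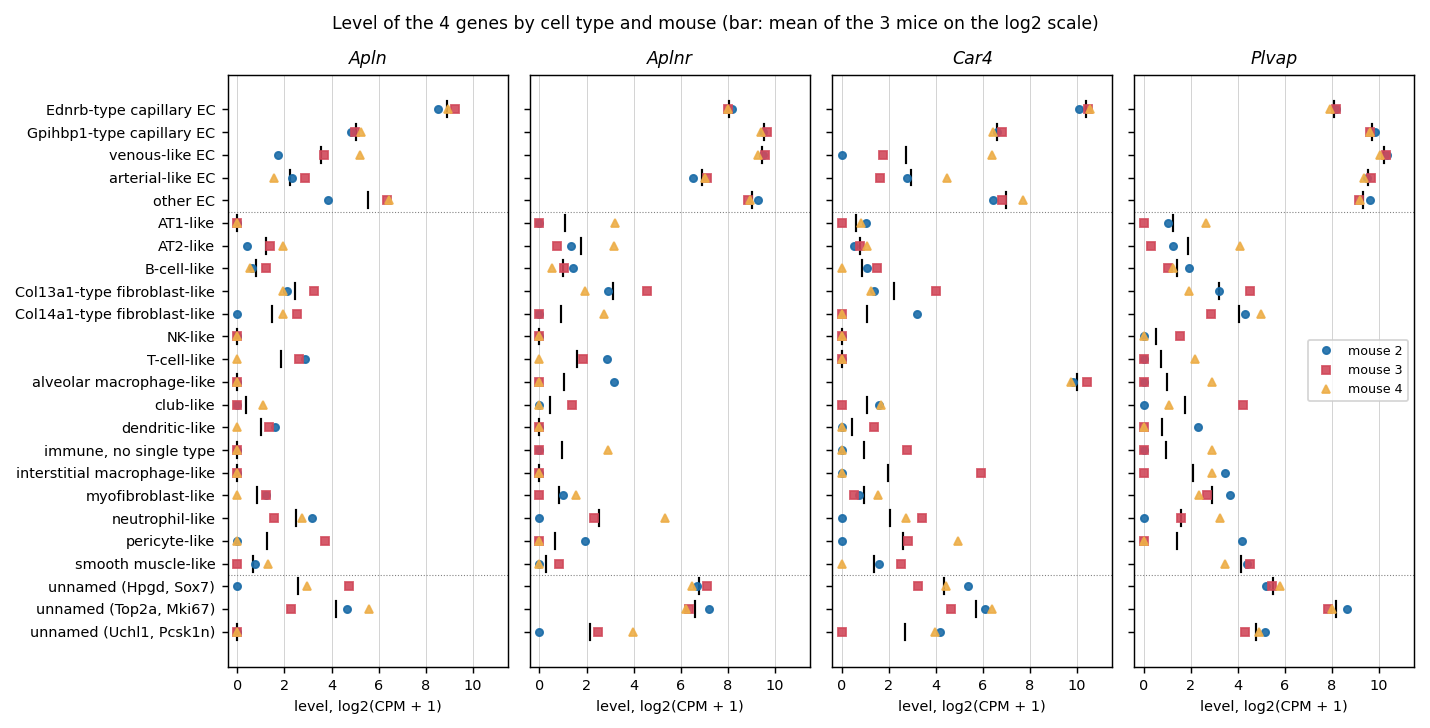
Levels of *Apln*, *Aplnr*, *Car4*, and *Plvap* (x axis, log2(CPM + 1)) in each cell type with at least 10 cells per mouse and in the unnamed clusters (rows). Symbols are mice and the bar is their mean on the log2 scale. *Apln* is highest in Ednrb-type ECs, *Aplnr* in Gpihbp1-type and venous-like ECs, *Plvap* in venous-like ECs, and *Car4* in Ednrb-type ECs and alveolar macrophage-like cells.

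Among EC types, the ligand *Apln* was concentrated in Ednrb-type capillary ECs, at 366, 610, and 497 CPM in mice 2, 3, and 4. Gpihbp1-type ECs had 27.7, 31.1, and 36.6 CPM, and the arterial-like sub-cluster of 95 cells had 4.12 to 13.0 CPM, while the one of 59 cells had no *Apln* UMI. The Ednrb-type levels lay above those of every other type in every mouse. The next types in the order, ECs without a list (60.4 ± 40.8 CPM) and Gpihbp1-type ECs (31.8 ± 4.49 CPM), overlapped. Ednrb-type ECs held 64.4% ± 9.61% of all *Apln* UMIs, and 130 of their 167 cells had at least 1 (90 of the 95 when the 4 genes were allowed among the variable genes).

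The receptor *Aplnr* had a different order. It was 723, 800, and 686 CPM in Gpihbp1-type ECs, 716, 753, and 613 CPM in venous-like ECs, and 286, 253, and 257 CPM in Ednrb-type ECs. Gpihbp1-type and venous-like ECs overlapped (*P* = 0.5, exact permutation test over mice, 2-sided, smallest possible 0.1). Both lay above Ednrb-type ECs in every mouse. The arterial-like sub-clusters had 196 ± 73.2 CPM (95 cells) and 45.4 ± 10.4 CPM (59 cells), both lower than Ednrb-type ECs in every mouse. By cells, an *Aplnr* UMI was found in 47 of the 95 and 13 of the 59, against 29 of 167 Ednrb-type cells. Of the 167, 70 were shallow (median 841 UMIs), and 1 of these had *Aplnr*. The other 97 (median 9148 UMIs) had it in 28. That is a larger share than in the 59 (median 8413 UMIs) and a smaller one than in the 95 (median 6128 UMIs). The 29 Ednrb-type cells with *Aplnr*, at a median depth of 22540 UMIs, held all 359 *Aplnr* UMIs of the Ednrb type.

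Lymphatic-like ECs, too few for the order, had 1247, 1606, and 740 CPM of *Aplnr* in 10, 7, and 5 cells. Of these 22 cells 7 were marked as doublets, and the marked cells held 22 of the 415 *Aplnr* UMIs. An *Aplnr* UMI was found in 16 of the 22. Over all gated ECs, the lymphatic markers *Prox1* and *Mmrn1* gave 180 and 467 UMIs in cells with neither *Aplnr* nor *Car4*, none of them from mouse 3. They gave 15 and 8 in cells with *Aplnr* only and 6 and 8 in cells with both. The *Aplnr* of this sub-cluster thus lay in cells with few UMIs of these 2 markers.

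*Car4* was 1098, 1401, and 1488 CPM in Ednrb-type ECs and 96.1, 111, and 85.8 CPM in Gpihbp1-type ECs. It was nearly absent from arterial-like and venous-like ECs, where 4 of 95 and 1 of 59 cells of the arterial-like sub-clusters and 2 of 105 venous-like cells had a *Car4* UMI. One venous-like cell of mouse 4 held 35 of the 36 *Car4* UMIs of that type.

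*Plvap* ran from 1199 ± 119 CPM in venous-like ECs through 822 ± 70.9 in Gpihbp1-type ECs to 271 ± 27.0 CPM in Ednrb-type ECs. The arterial-like sub-clusters differed from each other, at 956 ± 106 CPM (95 cells) and 499 ± 80.7 CPM (59 cells). So did the Gpihbp1-type sub-clusters, at 607 ± 31.5 CPM in the 263 cells led by *Cxcl10* and *Sema3c* and 1117 ± 165 CPM in the 152 led by *Cxcr4* and *Gja1*, and the latter overlapped venous-like ECs. Ednrb-type ECs were below each of these in every mouse.

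The direct comparison of the capillary types, fitted with all EC types of at least 10 cells per mouse, showed *Apln* and *Car4* higher and *Aplnr* and *Plvap* lower in Ednrb-type ECs. The log2 fold change of Ednrb-type over Gpihbp1-type ECs was 3.95 ± 0.20 (SE, edgeR, adjusted *P* = 2.20e-13) for *Apln* and 3.80 ± 0.29 (adjusted *P* = 3.61e-10) for *Car4*. Both were higher in 3 of 3 mice, and 8.33% of 7835 genes were called higher. For *Aplnr* it was -1.45 ± 0.13 (adjusted *P* = 7.30e-09) and for *Plvap* -1.58 ± 0.13 (adjusted *P* = 5.89e-10). Both were lower in 3 of 3 mice, and 7.81% of genes were called lower.

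Depth differed between the types. Cells thinned to 1000 UMIs, with 47 shallower Ednrb-type cells left out, kept the contrast. An *Apln* UMI was then expected in 45.8% ± 7.44% of Ednrb-type and 2.54% ± 0.73% of Gpihbp1-type ECs, and a *Car4* UMI in 71.8% ± 10.3% and 6.56% ± 1.19%. For *Aplnr* the thinned shares were 8.39% ± 1.01% and 49.2% ± 2.38%, and for *Plvap* 8.92% ± 2.05% and 51.5% ± 1.60%. The unthinned shares, over all cells of a type, were 77.8% and 17.3% for *Apln*, 76.6% and 27.0% for *Car4*, 17.4% and 96.4% for *Aplnr*, and 20.4% and 95.2% for *Plvap*. In B-cell-like cells the thinned shares were 0.0743% to 0.175%.

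Ednrb-type ECs were made of a sub-cluster of 97 cells led by *Fibin* (median 9148 UMIs) and one of 70 cells led by *Meg3* and *Ltbp2* (median 841 UMIs). In the deeper sub-cluster 92 of 97 cells had *Apln*, 95 had *Car4*, 28 had *Aplnr*, and 29 had *Plvap*. In the shallow one 38, 33, 1, and 5 of 70 cells did. Without the shallow sub-cluster, an alternative chosen after seeing the data, the log2 fold changes were 3.89 for *Apln*, 3.85 for *Car4*, -1.38 for *Aplnr*, and -1.51 for *Plvap*.

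*Apln* and *Car4* rose together in Ednrb-type ECs, so the RefSeq sequence of the 250 bases before each start (GRCm38.p6) is shown. Capitals mark GGAAG on either strand, a form of the ETS site, and other forms of the site are not marked. ETS factors are a family of transcription regulators active in ECs. RefSeq entries matched 2 of the 4 genes, and *Aplnr* and *Plvap* had no entry. The *Apln* window, chrX:48034854-48035103 on the minus strand, held GGAAG 3 times, and the *Car4* window, chr11:84957504-84957753 on the plus strand, held it 2 times.
Apln: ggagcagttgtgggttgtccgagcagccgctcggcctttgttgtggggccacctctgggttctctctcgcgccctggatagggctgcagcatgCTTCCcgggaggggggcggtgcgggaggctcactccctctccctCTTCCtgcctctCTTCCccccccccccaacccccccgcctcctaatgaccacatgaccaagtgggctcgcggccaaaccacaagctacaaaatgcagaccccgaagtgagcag
Car4: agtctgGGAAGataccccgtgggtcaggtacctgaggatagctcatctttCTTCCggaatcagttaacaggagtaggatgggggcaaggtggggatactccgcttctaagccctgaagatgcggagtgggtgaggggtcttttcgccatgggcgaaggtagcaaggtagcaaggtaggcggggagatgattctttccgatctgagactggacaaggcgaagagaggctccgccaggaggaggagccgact
Of 32851 windows of this length, 64.07% held GGAAG on either strand. ACGTG, the core of hypoxia-factor sites, was in 16.57% of windows and AGGTGT, a T-box half-site, in 11.83%, and neither was in the *Apln* or *Car4* window. The KLF motif GGGTG, in 52.01% of windows, occurred once in the *Car4* window and not in that of *Apln*. These are letter matches only. The genes themselves lie at chrX:48025146-48034853 (*Apln*, minus strand), chr2:85136225-85139923 (*Aplnr*, plus), chr11:84957786-84966044 (*Car4*, plus), and chr8:71497765-71511752 (*Plvap*, minus, overlapped by *Gtpbp3* on the other strand) in GRCm38, GENCODE M21.

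Within Ednrb-type ECs, *Aplnr* and *Plvap* sat in a small set of cells. Only 29 of the 167 cells had an *Aplnr* UMI (9, 10, and 10 per mouse), and these 29 held all 359 *Aplnr* and 355 of the 368 *Plvap* UMIs of the type. *Plvap* was found in 26 of these 29 cells and in 8 of the other 138, at 494 against 20.5 CPM. The same 29 cells all had *Car4*, and 28 had *Apln*. Their levels of both were below those of the other 138 cells, at 871 against 1840 CPM for *Car4* and 280 against 730 CPM for *Apln*, in every mouse.

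The 29 cells were deep, at a median of 22540 UMIs against 2854 in the other 138, and 1 of them was marked as a doublet. Markers of both capillary types moved with this split. The summed level of the 8 Ednrb-type markers was 3937 to 4840 CPM per mouse in cells with *Aplnr* and 9376 to 12457 CPM in cells without. The 8 Gpihbp1-type markers summed to 7232 to 8294 CPM with *Aplnr* and 838 to 2152 CPM without. Whether these droplets hold 1 cell or a pair was not tested.

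**Figure D2:**
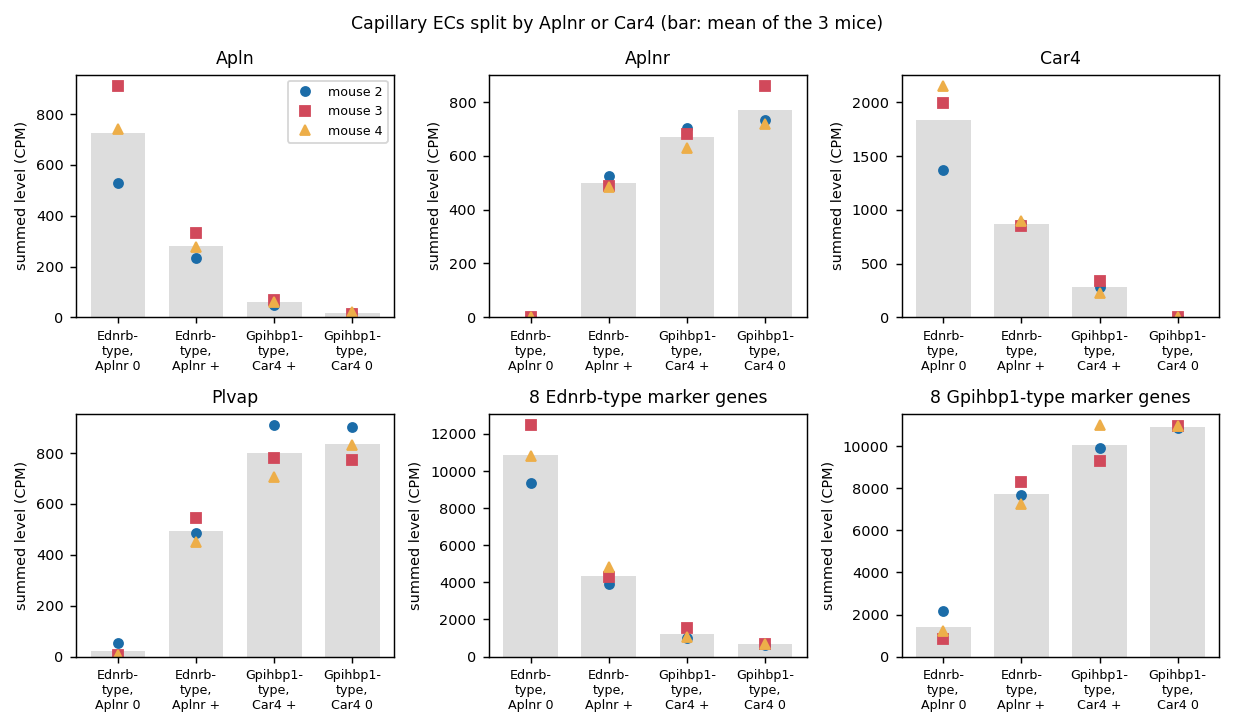
Summed levels (y axis, CPM) of the 4 genes and of the 8 Ednrb-type and 8 Gpihbp1-type marker genes in Ednrb-type ECs without (Aplnr 0) and with (Aplnr +) an *Aplnr* UMI and in Gpihbp1-type ECs with (Car4 +) and without (Car4 0) a *Car4* UMI. Symbols are mice and bars their mean. Ednrb-type ECs with *Aplnr* lie between the 2 types, at 494 CPM of *Plvap* over the mice together, and Gpihbp1-type ECs with *Car4* are near the other Gpihbp1-type ECs in *Plvap* and Gpihbp1-type markers but higher in *Apln* and Ednrb-type markers. The gene that defines a split, *Aplnr* or *Car4*, is at 0 by construction in one group.

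The opposite crossing looked different. In Gpihbp1-type ECs 112 of 415 cells had *Car4*, and their median depth of 8850.5 UMIs was close to the 7588 UMIs of the cells without. Their Gpihbp1-type markers summed to 10264 CPM against 10918 CPM and their *Plvap* level was 797 against 847 CPM. *Apln* was 58.9 CPM in Gpihbp1-type ECs with *Car4* and 17.5 CPM in those without, higher in every mouse. The 8 Ednrb-type markers were 1140 against 662 CPM, also higher in every mouse.

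Cell by cell, the 4 genes differed in how widely the 949 gated ECs carried them. *Plvap* was found in 778 cells, *Aplnr* in 704, *Car4* in 286, and *Apln* in 238, at medians of 7, 5, 4, and 2 UMIs per positive cell. *Apln* and *Car4* were concentrated, with the top 95 cells for each gene holding 78.2% of its *Apln* and 75.4% of its *Car4* UMIs. The corresponding shares were 43.5% for *Aplnr* and 39.8% for *Plvap*.

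Co-detection was measured as the number of ECs with both genes over the number expected from each gene's share within depth quartiles of the same mouse. *Apln* and *Car4* were found together in 172 ECs where 80.3 were expected, a ratio of 2.15 ± 0.13 (SD, n = 3 mice). *Aplnr* and *Plvap* were found together in 664 ECs against 590.7 expected, a ratio of 1.13 ± 0.030. As they were in 704 and 778 of the 949 ECs, this ratio had little room above 1, and the 2 ratios cannot be compared in size. Both ratios were above 1 in 3 of 3 mice.

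The 4 crossed pairs were below 1 in 3 of 3 mice. The ratio was 0.77 ± 0.057 for *Apln* with its receptor *Aplnr*, 0.72 ± 0.064 for *Apln* with *Plvap*, 0.83 ± 0.091 for *Aplnr* with *Car4*, and 0.75 ± 0.11 for *Car4* with *Plvap*. With 3 mice, the exact sign-flip permutation test gave *P* = 0.25 for each of the 6 pairs, raw and adjusted, the smallest value it can give. By detection, every pair was found together in some ECs. *Plvap* (778) and *Aplnr* (704) were in most of the 949 gated ECs. *Plvap* therefore had to share cells with *Apln* (238) and *Car4* (286), and *Aplnr* with *Car4*. For these pairs detection could not show full exclusion, and their ratios had a floor. For *Apln* with *Aplnr* the totals over the 949 ECs left room for full exclusion. The counts within mouse 3 did not (69 and 167 of 228 ECs). Nor did the shares in the next-deepest (27.1% and 75.8%) and deepest (38.7% and 88.7%) depth quartiles. Part of the overlap was forced there, so the ratio of this pair had a floor as well. *Apln* and *Aplnr* were found together in 142 gated ECs, 90 of them in the deepest quartile. Whether ECs with both genes of a pair hold 1 cell or several was not tested.

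The ratios differed in size between depth quartiles and, for the crossed pairs with *Aplnr*, in direction. The parts of depth, doublets, and the mix of EC types in this were not tested. In the deepest quartile all 4 crossed pairs lay above 1, while in the other 3 quartiles all 4 lay below it. For *Aplnr* with *Car4* the ratio pooled over mice was 0.44, 0.78, 0.67, and 1.10 from the shallowest to the deepest quartile of ECs, and for *Apln* with *Aplnr* it was 0.24, 0.61, 0.60, and 1.10. The ratios of *Plvap* with *Apln* and with *Car4* were 1.02 and 1.02 in the deepest quartile. Its median depth was 20472.5 UMIs, and *Aplnr* and *Plvap* were found in 88.7% and 96.6% of its ECs, which leaves little room above 1. For the pairs with *Plvap* it also leaves little room below 1, so these ratios cannot show a direction there. For *Apln* with *Car4* the ratio went from 3.46 in the shallowest to 1.57 in the deepest quartile. Detection rose from 18.9% to 38.7% of ECs for *Apln* and from 20.6% to 44.1% for *Car4*, which lowers the highest ratio possible. When every EC was thinned to 2000 UMIs, with 10 to 30 shallower cells per mouse left out, the ratio was 0.64 ± 0.14 for *Aplnr* with *Car4*, 0.51 ± 0.14 for *Apln* with *Aplnr*, and 3.96 ± 0.13 for *Apln* with *Car4*.

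**Figure D3:**
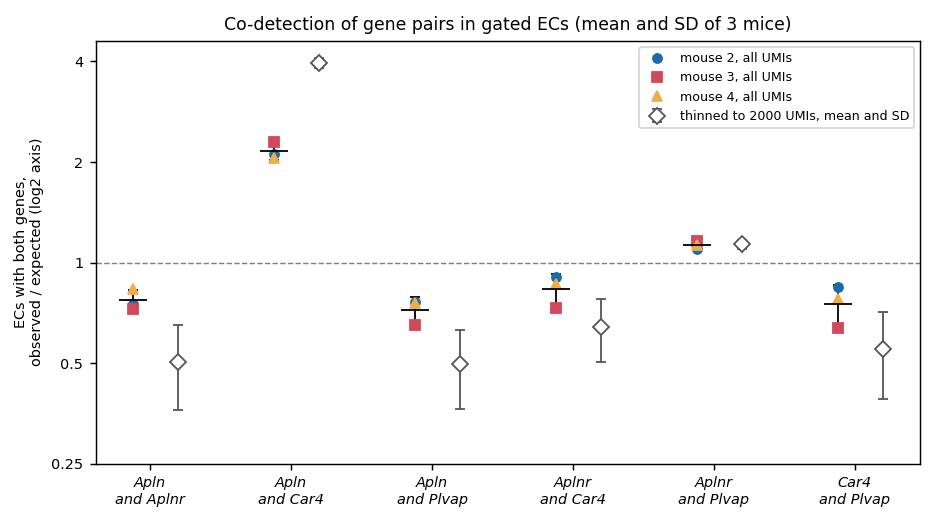
Number of gated ECs with both genes of a pair over the number expected (y axis, log2-spaced), for the 6 pairs of the 4 genes. Filled symbols are mice at full depth with the mean and SD drawn in black, and open diamonds are the mean and SD after thinning to 2000 UMIs. *Apln* with *Car4* (2.15) and *Aplnr* with *Plvap* (1.13) lie above 1 and the other 4 pairs below it.

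Graded by UMIs, the pattern was stepwise for *Apln* and flat, then lower, for *Aplnr*. *Apln* was found in 9.95% of the 663 ECs without *Car4*, in 33.3% of those with 1 *Car4* UMI, in 41.6% with 2 to 5, in 69.0% with 6 to 10, and in 92.9% of the 99 ECs with over 10. *Aplnr* was found in 78.1%, 79.7%, 78.7%, 55.2%, and 45.5% of the same groups, and *Plvap* in 89.4%, 81.2%, 76.4%, 48.3%, and 47.5%. The ECs with over 10 *Car4* UMIs were also deeper, at a median of 10934 UMIs against 7627 in ECs without *Car4*.

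**Figure D4:**
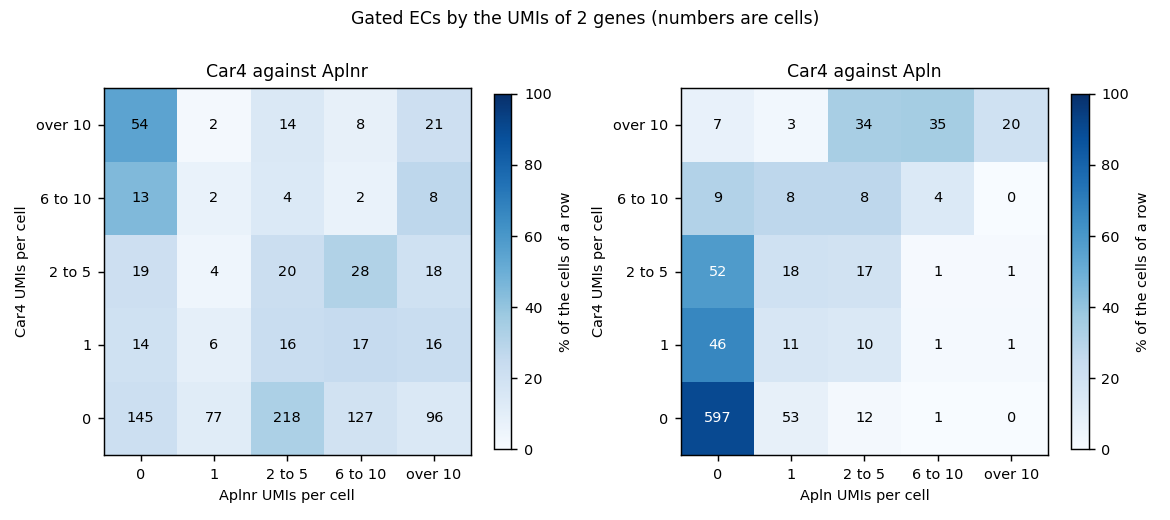
Gated ECs counted by their *Car4* UMIs (rows) and their *Aplnr* UMIs (left) or *Apln* UMIs (right). The number in a box is its cells and the shade is its percent of the row. Of 99 ECs with over 10 *Car4* UMIs, 54 had no *Aplnr* and 7 had no *Apln*.

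Among the 303 ECs with at least 10 UMIs of *Aplnr* and *Car4* together, *Aplnr* made up over 90% of the pair in 47.5% ± 5.23% of cells, under 10% in 21.2% ± 7.33%, and a share between in 31.3% ± 4.23% (SD, n = 3 mice). For *Aplnr* with *Plvap*, 89.7% ± 3.04% of the 487 ECs lay between. For *Apln* with *Car4*, 81.8% ± 5.23% of the 117 ECs did.

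Within single capillary types, with the expected numbers again taken within depth quartiles of each mouse, few pairs left room to move. *Aplnr* and *Plvap* were found in 400 and 395 of the 415 Gpihbp1-type ECs, and in Ednrb-type ECs 28.4 of the 29 cells with *Aplnr* were already expected to have *Car4*, so ratios near 1 cannot be read there. *Aplnr* with *Plvap* in Ednrb-type ECs gave 26 cells against 17.8 expected (1.46), and *Apln* with *Car4* in Gpihbp1-type ECs gave 35 against 23.3 (1.5), both pooled over mice.

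Split by *Car4* and *Aplnr*, the gated ECs gave 100 with *Car4* only, 518 with *Aplnr* only, 186 with both, and 145 with neither. The cells with *Car4* only were 8.38%, 14.5%, and 10.2% of the ECs of mice 2, 3, and 4. Of the 131 gated Ednrb-type ECs, 89 had *Car4* only, 29 both, 13 neither, and none *Aplnr* only, which allows up to 2.29% of cells with a UMI of *Aplnr* and none of *Car4* and sets no limit on expression. Gpihbp1-type ECs had 294 of 415 with *Aplnr* only and 106 with both. Of 99 gated venous-like ECs 92 had *Aplnr* only, and of 150 arterial-like ECs 88 had neither. Cells with both were deeper, at a median of 13583 UMIs, and 13 of them (6.99%) were marked as doublets, against none of the cells with *Car4* only, 16 of those with *Aplnr* only (3.09%), and 10 of those with neither (6.90%).

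The other 2 genes followed this split, which they had not been used to make. *Apln* was 467, 870, and 649 CPM in ECs with *Car4* only and 10.5, 10.3, and 18.1 CPM in ECs with *Aplnr* only. The groups did not overlap, and the log2 fold change was 5.64 ± 0.25 (SE, edgeR, adjusted *P* = 1.41e-09). Of 8755 genes, 10.7% were called higher in ECs with *Car4* only. *Plvap* was 161, 8.7, and 45.4 CPM in ECs with *Car4* only and 943, 928, and 824 CPM in ECs with *Aplnr* only. The groups were again apart, and mouse 2 was the highest among the low values. Its log2 fold change was -3.71 ± 0.38 (adjusted *P* = 4.80e-06), and 12.0% of genes were called lower. The *Plvap* UMIs of ECs with *Car4* only came from 10 of the 100 cells. Without mouse 2 the change of *Plvap* was -5.04, and without mouse 3 it was -3.14.

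Of the genes higher in ECs with *Car4* only, 809 passed an adjusted *P* of 0.05, reached at least 50 CPM there, and were higher in every mouse, and *Apln* had rank 7 among them by size. Those above it included *Fibin* (7.18), *Begain* (7.17), *Chst1* (6.11), *Lmntd1* (6.09), and *Cdkn2b* (5.82, all log2 fold changes), and *Sirpa* (5.59), *Tmeff2* (5.47), and *Lrrn3* (5.27) came next. *Cdkn2b* codes for a cell cycle inhibitor. *Begain* had 46 UMIs against 2, a ratio of 193 with a 95% counting interval from 50.5 to 1642.

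Of the 755 genes lower by the same rule, the 10 with the largest changes were rare or absent in ECs with *Car4* only. *Cthrc1*, *Pgm5*, *Colec12*, and *Lhx6* gave no UMI there. They were at least 20.3-, 18.7-, 15.0-, and 13.7-fold lower, taking 3 counts over the group as the floor. *Slc6a2*, a noradrenaline transporter, had 1 UMI against 2228, a ratio of 265 (47.6 to 10487). *Fabp4*, a fatty acid carrier, had 1 against 1928, a ratio of 230 (41.2 to 9075), and *Prss23*, a serine protease, had 2 against 1842, a ratio of 110 (30.3 to 907). *Fgl2* (1 against 754), *Mki67* (1 against 528, a marker of dividing cells), and *Iigp1* (1 against 483) completed the 10. *Slc6a2* and *Prss23* are markers of the venous-like list. Both, with *Pgm5* and *Fgl2*, were among the 10 leading genes of venous-like ECs. *Mki67* was among those of the Gpihbp1-type sub-cluster of 152 cells. Venous-like ECs were 92 of the 518 ECs with *Aplnr* only and 0 of the 100 with *Car4* only. The part of this mix of EC types in the changes was not tested.

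The marker lists of the capillary types, chosen with these data known, split in the same way. Here the 8 Ednrb-type genes were all called higher in ECs with *Car4* only, at a median log2 fold change of 4.78. Of the 8 Gpihbp1-type genes, 7 were called lower and 1, *Sema3c* (-0.61, adjusted *P* = 0.091), was not called, at a median of -2.35. Of all genes, 10.7% were called higher and 12.0% lower, at a median of -0.0065.

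Among genes that make, cut, or bind apelin, 4 of the 9 besides *Aplnr* could be tested between ECs with *Car4* only and *Aplnr* only. *Apln* rose, and the proprotein convertases *Furin* (-0.97, adjusted *P* = 0.0016) and *Pcsk5* (-2.36, adjusted *P* = 0.00050) fell, while *Pcsk7* was at -0.11 (adjusted *P* = 0.90). Of all genes, 10.7% rose and 12.0% fell. Both *Furin* and *Pcsk5* were also lower in Ednrb-type than in Gpihbp1-type ECs, at -0.57 and -1.92, where 7.81% of all genes were called lower. FURIN and related convertases cut hormone precursors. *Mme*, which codes for a peptidase that breaks apelin down, was lower in ECs than in the mean of the other classes (log2 fold change -2.57, adjusted *P* = 0.0040), although it was at 0.544 CPM in immune cells and 2.75 CPM in ECs.

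Of 10 G protein and arrestin partners of the receptor, 3 rose and 1 fell with *Car4* only, where 10.7% of all genes rose and 12.0% fell. The α subunits *Gnai1* (1.52), *Gna11* (1.12), and *Gna13* (0.97) rose, β-arrestin 1, *Arrb1*, which uncouples receptors from G proteins, fell (-1.07), and the list's median was 0.064. In Ednrb-type against Gpihbp1-type ECs, *Gna11* (0.79) and *Gna13* (0.47) were called higher, as were 8.33% of all genes. *Arrb1* (-0.79) was called lower there, as were 7.81%, and *Gnai1* was not called (0.70, adjusted *P* = 0.16, edgeR). Of the 10, 7 were called higher in ECs than in the mean of the other classes, against 29.7% of all genes, at a median of 1.22 against -0.065 for all genes.

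Of 12 tested genes placed upstream or downstream of apelin in endothelium, 4 rose and 4 fell with *Car4* only, at a median of -0.062, where 10.7% of all genes rose and 12.0% fell. *Fgfr1* (1.56), *Hdac5* (1.41), *Klf4* (0.68), and *Mef2a* (0.56) rose. The gap junction gene *Gja4* (-2.72), the nitric oxide synthase *Nos3* (-2.68), the transcription factor *Foxo1* (-2.53), and the hypoxia factor *Epas1* (-0.44) fell. *Gja4* is on the arterial-like list, and 57 arterial-like ECs had *Aplnr* only against 2 with *Car4* only. Between Ednrb-type and Gpihbp1-type ECs, *Gja4* (-1.88), *Nos3* (-1.24), *Foxo1* (-1.15), and *Epas1* (-0.39) were called lower, as were 7.81% of all genes. *Fgfr1*, *Hdac5*, and *Klf4* were called higher there, as were 8.33%, and *Mef2a* was not (0.34, adjusted *P* = 0.066, edgeR). *Klf2*, a flow-responsive factor, was at 0.083 (adjusted *P* = 0.67).

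No other carbonic anhydrase was called higher in ECs with *Car4* only. Only 3 of the other 15 passed the filter on low counts, and all 3 were called lower in ECs with *Car4* only, as were 12.0% of all genes, *Car14* at -5.13, *Car8* at -3.71, and *Car2* at -0.67. In Ednrb-type against Gpihbp1-type ECs, *Car14* (-1.45) and *Car2* (-1.015) were also called lower, as were 7.81% of all genes. *Car8* was not called there (0.42, adjusted *P* = 0.64, edgeR). *Car14* (log2 fold change 6.57) and *Car8* (2.70) were, like *Car4*, called higher in ECs than in the mean of the other classes. For *Car8* the epithelial level of 351 CPM was above the EC level of 95.2 CPM, and the gene was among the leading genes of venous-like ECs. *Car1* gave no UMI in any kept cell.

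Caveolar genes did not move as one with *Plvap*. Of the 9 genes, 5 were lower in ECs with *Car4* only, against 12.0% of all genes, namely *Plvap*, the cavins *Prkcdbp* (-1.45) and *Ptrf* (-1.24), the caveolin *Cav1* (-0.72), and *Ehd2* (-0.55). *Ehd4* (0.80) and *Cav2* (0.67) rose, as did 10.7% of all genes, and *Sdpr* was at 0.042 (adjusted *P* = 0.85). In Ednrb-type against Gpihbp1-type ECs, *Prkcdbp* (-0.0049, adjusted *P* = 0.996, edgeR) and *Ehd2* (-0.32, adjusted *P* = 0.072) were not called. *Plvap*, *Ptrf* (-0.62), and *Cav1* (-0.57) were called lower there, as were 7.81% of all genes. *Ehd4* (0.45) and *Cav2* (0.33) were called higher, as were 8.33%. All 9 were called higher in ECs than in the mean of the other classes, as were 29.7% of all genes, although *Prkcdbp* was higher in stromal cells (172 CPM) than in ECs (82.0 CPM).

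**Figure D5:**
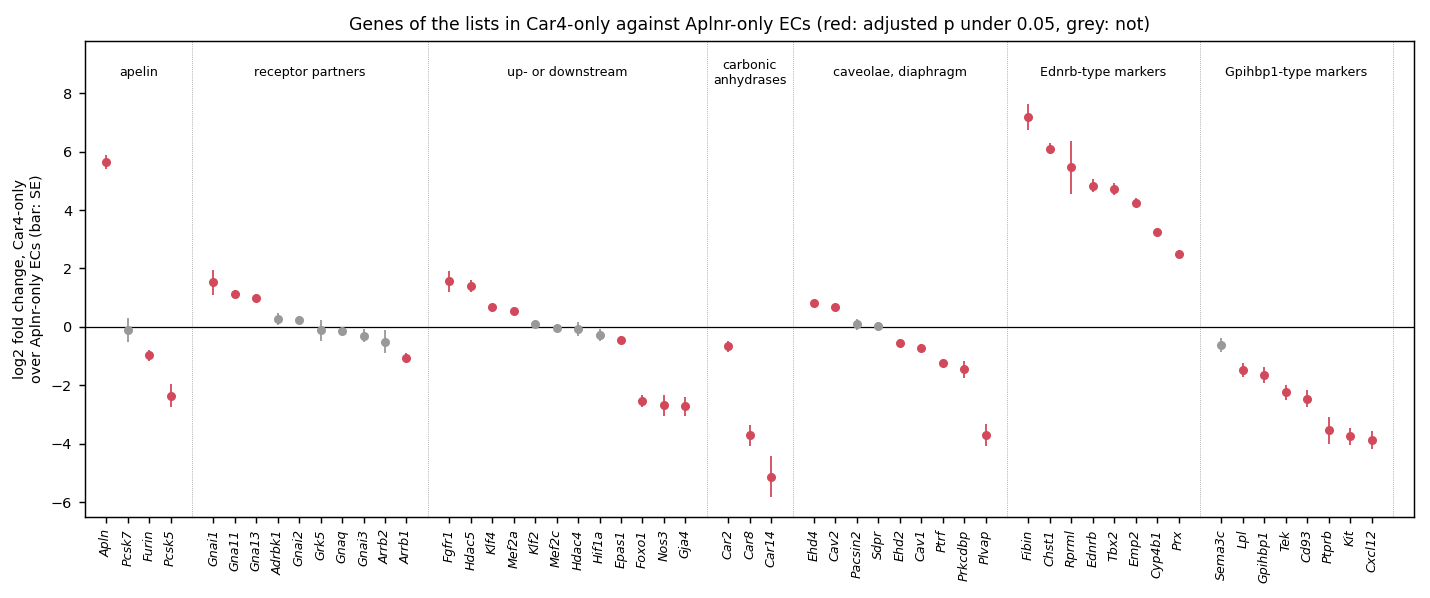
Log2 fold change of ECs with *Car4* only over ECs with *Aplnr* only (y axis, bars are SE) for the tested genes of each list (x axis). Red marks an adjusted *P* under 0.05 in edgeR and grey does not. *Apln* is at 5.64 and *Plvap* at -3.71, the 8 Ednrb-type markers are above 0, and the 8 Gpihbp1-type markers below.

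Across 21 cell types, the genes most like each member by Pearson's r of log2(CPM + 5) were picked from 12184 genes, as a description in which all types share 3 libraries. *Apln* was followed most closely by *Ces2e* (0.94), *Ackr2* (0.93), *Gm10638* (0.91), *Pcdh12* (0.89), and *Chst1* (0.89), and *Aplnr* by *Grrp1*, *Gpihbp1*, *Emcn*, *Fam181b*, and *Unc45b* (0.97 to 0.98). *Plvap* was followed by *Nova2*, *Ptprb*, *Kif26a*, *Nos3*, and *Gpr182* (all 0.97). The 21 types included the 22 lymphatic-like ECs, where *Grrp1*, *Emcn*, *Unc45b*, and *Nova2* were highest. How far these matches rest on those 22 cells was not tested. *Car4* had looser matches, led by *Sgk1* (0.82), *Tmem14c* (0.81), *Zcrb1* (0.80), *C2cd2l* (0.80), and *Mfsd1* (0.76).

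Over the 949 gated ECs, which share 3 libraries and differ in depth, the gene most like *Apln* was *Car4* (mean r over mice 0.72, range 0.63 to 0.85), followed by *Emp2*, *Sirpa*, *Tbx2*, and *Itgb5*. *Car4* was most like *Sirpa* (0.73), then *Apln*, *Tbx2*, *Pmp22*, and *Chst1*. *Aplnr* was most like *Prcp* (0.56), *Cd93* (0.55), *Kit* (0.54), *Gpihbp1* (0.53), and *Tmsb10* (0.48), and *Plvap* most like *Ptprb* (0.63), *Tek* (0.56), *Clec14a* (0.53), *Itga6* (0.52), and *Cd93* (0.52). The receptor tyrosine phosphatase *Ptprb* had the lowest r with both *Apln* (-0.65) and *Car4* (-0.65). *Car4* had the lowest r with *Plvap* (-0.48), and *Cd24a* the lowest with *Aplnr* (-0.41).

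Outside ECs, *Car4* was found in alveolar macrophage-like cells, at 911, 1377, and 849 CPM in mice 2, 3, and 4. This range overlapped that of Ednrb-type ECs (*P* = 0.2, exact permutation test over mice, 2-sided, smallest possible 0.1). Of 71 such cells 52 had a *Car4* UMI (73.2%, exact 95% interval 61.4% to 83.1%, counting error only), and after thinning to 1000 UMIs the share was 57.3% ± 3.52%. None had an *Apln* UMI, which allows up to 4.23% of cells with a UMI and sets no limit on expression, and 1 cell each had *Aplnr* and *Plvap*. The macrophage genes *Ear2* and *Chil3* were found in 91.5% and 80.3% of these cells, against 2.82% for *Cdh5*, 4.23% for *Cldn5*, and 1.41% for *Ednrb*. The surfactant gene *Sftpc* of AT2 cells was found in 76.1% of them, and 1 of the 71 was marked as a doublet.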

How the data were processed

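Whole-lung scRNA-Seq of 3 RA mice was used. Per the file headers, the authors ran Cell Ranger 3.0.2 on every 10x v3 library alone. The deposited values are UMI counts of genes in the barcodes called as cells, without normalization, and no listed barcode has fewer than 500 UMIs. The submitters' processing notes name mm10, the annotation release is not given in the sources used here, and whether intronic or antisense reads were counted was not stated. UMI counts per cell set the precision of a share. The exact and counting intervals cover counting error only, while each SD is over mice.

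Barcodes with 200 or more detected genes and no more than 20% of UMIs from mitochondrial genes were merged, normalized with SCTransform, and clustered at a resolution of 0.8 on 30 principal components (20 for ECs; R 4.3.3, Seurat 5.3.0, sctransform 0.4.2), with the 4 genes left out of the variable genes. Clusters were named by mean log2 fold of marker lists, at least 1 for classes and 0.2 for EC types, thresholds set after the clusters had been seen. A cluster that passed no class list took the class of a cell type list on which it reached 1. The alveolar macrophage-like cluster, at 0.64 on the immune list, was among these. Of the 2 Gpihbp1-type sub-clusters, the one led by *Cxcr4* and *Gja1* had none of its list's markers among its 10 leading genes. Doublets were scored by simulation (scanpy 1.11.5, Python 3.11.15), and the highest 0.8% per 1000 cells were marked and kept.

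UMIs were summed per mouse and group and tested with edgeR 4.0.16 (quasi-likelihood, TMM, filterByExpr, Benjamini-Hochberg over all genes tested, 0.05), with DESeq2 1.42.0 as an alternative. The tests were checked on simulated counts. Groups of a mouse share that mouse, and deviations of same-mouse sums from their group means correlated at 0.116 to 0.468 over classes, 0.11 to 0.317 over EC types, and -0.0733 to 0.0842 for the split by *Car4* and *Aplnr*. Co-detection was set against shares within quartiles of depth per mouse, with exact permutation tests over mice (scipy 1.17.1). The named genes are the 4 genes and *Apela*, the apelin, receptor partner, carbonic anhydrase, caveolar, and capillary lists, the 5 genes most like each member (within ECs also the least like), and the 10 highest and lowest log2 fold changes between ECs with *Car4* only and *Aplnr* only past 50 CPM in the higher group, the adjusted threshold, and every mouse. Only the gene with the lowest r is named for each member, and *Grk2* and 3 cavin genes carry older symbols in the matrices (*Adrbk1*, *Ptrf*, *Sdpr*, and *Prkcdbp*). Some genes that this rule names are not reported here. The members and lists were chosen with earlier results of these data known.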

Additional observations from a re-analysis of the deposited data

Results flagged for a closer look

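The 2002 cells left out by the cell filter, which entered no comparison, held 25 *Apln*, 37 *Aplnr*, 766 *Car4*, and 81 *Plvap* UMIs, each above the 3 counts that a count of 0 allows. *Car4* was found in 282 of these cells (14.1%, exact 95% interval 12.6% to 15.7%), a larger share than the 5.35% of kept cells, and the other 3 genes in 20, 24, and 46 of them. Of the 282 cells with *Car4*, 231 (81.9%) had at least 2 of the 5 alveolar macrophage markers, and these cells held 685 of the 766 UMIs. Of the 1720 left-out cells without *Car4*, 123 (7.15%) had as many. *Cdh5* was found in 4.61% of the cells with *Car4*. Their median mitochondrial share was 35.6%, against 82.1% in left-out cells without *Car4*. The part of damaged cells and stray RNA in these values was not tested.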

How the results depend on the processing

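Directions and calls of the members tested held in every alternative run, 48 values for ECs against the other classes, 48 for the capillary types, and 26 for the split by *Car4* and *Aplnr*. The highest adjusted *P* among these was 0.027, for *Car4* between capillary types in DESeq2. The replicate block by mouse changed no call, with *Car4* at 3.80 and *Aplnr* at -1.45 between capillary types in the blocked fit, and *Plvap* at -3.75 in the split. Library sizes without TMM moved the median log2 fold change of all genes by 0.28 between ECs and other classes, with 6233 genes called higher and 2816 lower against 4213 and 4262, and no filter on low counts moved it by -0.15 there and by -0.29 between ECs with *Car4* only and *Aplnr* only. Leaving out 1 mouse gave 355 to 473 genes called lower between capillary types (357 without mouse 3 and 355 without mouse 4, against 612). Between ECs with *Car4* only and *Aplnr* only it gave 578 to 780 called higher and 589 to 887 called lower, the lowest of both without mouse 4, against 939 and 1047. Fewer samples enter these fits.

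Of the co-detection ratios, 64 stayed within the SD over mice and 14 moved beyond it, and none crossed 1 in these alternatives over ECs of all depths. Thinning to 2000 UMIs gave 0.505 for *Apln* with *Aplnr*, 3.96 for *Apln* with *Car4*, 0.496 for *Apln* with *Plvap*, 0.640 for *Aplnr* with *Car4*, and 0.552 for *Car4* with *Plvap*. Asking for 2 UMIs of each gene gave 0.638, 3.11, and 0.600 for the first 3 of these. The capillary types alone gave 0.660 for *Apln* with *Aplnr*, 1.67 for *Apln* with *Car4*, 0.722 for *Aplnr* with *Car4*, and 1.23 for *Aplnr* with *Plvap*. No depth strata gave 2.39 for *Apln* with *Car4*, and a gate of 2 UMIs gave 1.16 for *Aplnr* with *Plvap*. The EC share of UMIs became 90.3% for *Apln*, 96.4% for *Aplnr*, and 95.2% for *Plvap* with classes from each cell's own markers, 81.4% for *Apln* at a resolution of 1.2, and 94.99% for *Aplnr* and 90.8% for *Plvap* without marked doublets. The cause was not tested. The number of mice (3) and of gated ECs (949) limits all tests over mice.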

Other observations

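*Plvap* was also found in stromal cells, in 11.1%, 8.89%, and 5.71% of them at 14.3, 12.1, and 6.63 CPM in mice 2, 3, and 4, against 0.561% of B-cell-like cells. Stromal cells were deeper, at medians of 10243.5 to 11036.5 UMIs per mouse. The stromal types were uneven, with *Plvap* in 58 of 288 smooth muscle-like and 14 of 100 Col14a1-type fibroblast-like cells. It was in 48 of 803 myofibroblast-like, 8 of 210 Col13a1-type fibroblast-like, and 2 of 135 pericyte-like cells. In the unnamed cluster whose leading genes were *Top2a* and *Mki67* (141 cells), 34 cells had *Plvap*, 26 had *Aplnr*, 15 had *Car4*, and 10 had *Apln*, and 8 of the 141 were marked as doublets.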
